A study of Mus musculus with 36 samples.

Results

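The cornified envelope genes of the mouse were taken as every protein-coding row of the deposited counts whose symbol begins with Sprr or Lce, together with Ivl, Lor, Flg, Flg2, Hrnr, Rptn, Crnn, Tchh and Tchhl1. This gave 45 of the 55358 genes in the table, of which 15 were Sprr genes, 21 were Lce genes and 9 were the named single genes. Counts of RNA-seq reads were available for 36 libraries of cultured mouse keratinocytes, 3 in each of 12 groups, and 44 of the 45 genes carried enough reads to be tested. Flg2, with 5 reads in all libraries together, was not tested.

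The groups combined 3 genotypes, 2 calcium conditions and 2 culture times. WT cells were keratinocytes isolated from newborn Pkp4+/+ pups. PKP4-KO cells were isolated in the same way from Pkp4-/- pups. Their allele lacks a critical exon and came from the strain C57BL/6N-Pkp4tm1b(EUCOMM)Wtsi/JMmucd, whose lacZ reporter had been taken out with FLPe before the line was moved to C57BL/6J. PKP4 (plakophilin 4) is an armadillo protein of adherens junctions and desmosomes. Rescue cells were PKP4-KO keratinocytes with a lentiviral EGFP-tagged human PKP4, selected with puromycin as a stable line, so that they also carry the knockout allele and a vector. The pups that gave WT cells were not those that gave PKP4-KO cells, so pup and genotype cannot be told apart. LCM is low calcium medium, HCM is the same medium with calcium added to start differentiation, and cells were kept in either for 24 h or 72 h. Libraries labelled LD were taken here as those of 24 h and libraries labelled HD as those of 72 h. Nothing in the labels says that the 3 libraries of a group came from separate isolations, so the p-values below measure the spread between these libraries, which may be technical.

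The cornified envelope is the protein shell that replaces the plasma membrane of a dying keratinocyte at the surface of the skin. Transglutaminases cross-link it from precursors: involucrin early, then loricrin, the small proline-rich (SPRR) proteins that act as bridges, and the late cornified envelope (LCE) proteins, while filaggrin and the related fused-type S100 proteins bundle keratin and join the shell. Their genes lie together in the epidermal differentiation complex and are switched on in cultured keratinocytes when extracellular calcium is raised.

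All 45 genes were placed on chromosome 3 of GRCm39, between 91987578 and 93379287, a stretch of 1.39 Mb, in GENCODE M39. Lor stands first, followed by the Sprr2, Sprr1, Sprr3 and Sprr4 genes, Ivl, the Lce1 and Lce3 genes and, last, the genes of the fused-type S100 proteins, ending with Tchhl1. Several are near-identical copies. Of the 100-base words in the canonical transcript, 96.6% in Sprr2a1, 92.8% in Sprr2a2 and 36.2% in Sprr2a3 also occurred in transcripts of another gene, and the annotated span of Sprr2a2 contains Sprr2a1. The Lce3 genes Lce3c, Lce3d, Lce3e and Lce3f shared 24.1% to 43% of their words with one another. In the other members the share was 4.9% or less. The split of reads among the Sprr2a genes, and to a lesser degree among the Lce3 genes, is therefore uncertain, and sums over these groups are given beside the single genes. 8 members overlap an annotated gene on the opposite strand, namely Sprr2a2, Lce6a, Lce1a1, Lce1b, Lce1a2, Hrnr, Rptn and Tchh. Whether strand was used in counting is not given in the sources used here, so reads of these genes and of their antisense partners cannot be told apart. Flg also overlaps Rplp0-ps1, and Rptn overlaps Gm37857, on the same strand, which counting by strand would not separate. The authors counted reads with an Ensembl annotation rather than GENCODE M39, so the overlaps in their counting may differ from these.

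The sequences before the start sites are shown for 6 members, chosen to set the near-identical Sprr2a copies beside other Sprr2 genes and other families. The window is the 250 bases before the start of the canonical transcript, read 5′ to 3′ on the strand of the gene from GRCm39, in lower case; capitals mark matches to TGANTCA, the core bound by AP-1 (Fos and Jun factors), and to TATAAA, the TATA box. Sprr2d and Sprr2h stand for the other Sprr2 genes and Sprr2a2 and Sprr2a3 for the Sprr2a copies. Sprr1a had the highest level per kilobase in WT at 72 h in HCM, and Lce1g is 1 of the 14 Lce1 genes.
Sprr2d, chr3:92246197-92246446, + strand: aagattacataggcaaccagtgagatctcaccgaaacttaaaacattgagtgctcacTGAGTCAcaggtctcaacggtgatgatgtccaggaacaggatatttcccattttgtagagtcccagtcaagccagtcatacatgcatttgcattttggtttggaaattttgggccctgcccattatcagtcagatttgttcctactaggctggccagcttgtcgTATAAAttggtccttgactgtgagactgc
Sprr2h, chr3:92292742-92292991, + strand: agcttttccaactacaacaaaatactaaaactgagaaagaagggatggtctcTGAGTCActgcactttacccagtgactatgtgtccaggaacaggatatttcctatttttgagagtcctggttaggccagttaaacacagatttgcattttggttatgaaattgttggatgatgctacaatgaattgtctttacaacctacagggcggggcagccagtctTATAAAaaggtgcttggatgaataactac
Sprr2a2, chr3:92157789-92158038, + strand: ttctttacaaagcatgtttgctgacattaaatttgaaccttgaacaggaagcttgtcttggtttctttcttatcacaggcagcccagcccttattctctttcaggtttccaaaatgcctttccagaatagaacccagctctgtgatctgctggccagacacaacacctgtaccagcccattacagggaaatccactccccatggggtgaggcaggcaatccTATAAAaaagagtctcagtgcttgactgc
Sprr2a3, chr3:92192474-92192723, + strand: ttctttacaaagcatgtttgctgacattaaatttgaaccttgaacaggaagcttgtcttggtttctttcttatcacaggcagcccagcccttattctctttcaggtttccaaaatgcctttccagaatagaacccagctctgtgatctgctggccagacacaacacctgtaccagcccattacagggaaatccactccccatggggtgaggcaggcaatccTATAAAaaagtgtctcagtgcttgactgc
Sprr1a, chr3:92393209-92393458, - strand: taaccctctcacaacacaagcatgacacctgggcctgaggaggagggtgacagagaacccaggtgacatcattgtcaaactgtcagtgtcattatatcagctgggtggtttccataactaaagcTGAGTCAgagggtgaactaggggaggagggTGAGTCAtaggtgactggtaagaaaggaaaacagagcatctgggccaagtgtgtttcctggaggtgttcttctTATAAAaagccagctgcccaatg
Lce1g, chr3:92659646-92659895, - strand: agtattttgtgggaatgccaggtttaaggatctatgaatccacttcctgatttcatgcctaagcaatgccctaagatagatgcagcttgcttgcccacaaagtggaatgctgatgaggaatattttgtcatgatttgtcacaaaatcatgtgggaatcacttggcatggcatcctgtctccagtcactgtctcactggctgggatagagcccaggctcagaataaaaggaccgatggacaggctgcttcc

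The windows of Sprr2a2 and Sprr2a3 were identical at 249 of 250 positions. In these copies the TATA box matched and the AP-1 core did not, whereas Sprr2d, Sprr2h and Sprr1a carried both and Lce1g neither. Over windows of 250 bases before to 50 bases after the start, searched on both strands, TGANTCA occurred in 16 of the 45 members (35.6%) and in 7.14% of the windows of 21770 protein-coding genes. It was present in all 8 Sprr2 genes outside the Sprr2a copies, both Sprr1 genes, Ivl, Lor, Crnn, Flg2, Rptn and Tchhl1, and in 0 of 3 Sprr2a, 0 of 14 Lce1 and 0 of 6 Lce3 genes. In Sprr2d, Sprr2e, Sprr2f, Sprr2h, Sprr2i and Sprr2k a match began at -198 to -193 relative to the start. Related genes were counted singly, so the 16 members with a match may not be independent. TATAAA occurred in 22 members (48.9%, against 13.2% of all windows). AACCNGTT, the core of Grainyhead-like factors, matched in 1 member (2.22% against 2.07%), TTGCNNAA, a C/EBP core, in 5 (11.1% against 10.7%), and CCNCACCC, a KLF core, in 6 (13.3% against 18.2%). Matches of TGANTCA cannot overlap one another, while those of the other cores, including TATAAA on opposite strands, may overlap and were counted separately. A match describes letters in a window, not a bound site.

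Totals ranged from 13602728 to 22467187 reads per library. Pkp4 lay between 33.4 and 76.3 CPM (read counts scaled to a common library size, with TMM factors that equalise composition between libraries) in the WT libraries, 6.40 and 14.1 in PKP4-KO cells and 6.52 and 11.9 in Rescue, so that the ranges of WT and of the knockout libraries were apart. The EGFP-PKP4 sequence read 124 to 562 CPM in Rescue and 0 to 8.27 CPM in the other libraries. Krt5 and Krt14, which define basal keratinocytes, were read in all 36 libraries. Markers of other cell types were low but mostly not absent: the summed level reached at most 11.6 CPM for 8 fibroblast genes, 6.39 for 5 immune genes, 5.41 for 4 endothelial genes and 2.03 for 5 melanocyte genes. Tyr and Cd207 were at 0 in all libraries, while Pmel and Mlana had reads in all but 1 each. The summed level of the 4 simple-epithelial keratins Krt7, Krt8, Krt18 and Krt19 was 90.8 to 378 CPM in Rescue libraries against 3.59 to 19.0 CPM in WT and PKP4-KO libraries. Krt7 carried this sum, with up to 367 CPM, while Krt8, Krt18 and Krt19 reached at most 9.06, 1.30 and 10.2 CPM. Its part in the differences between Rescue and the other genotypes was not tested. TMM factors ranged from 0.481 to 0.546 in PKP4-KO at 72 h in HCM against 0.705 to 1.39 in the other groups. A library was taken to stand apart by its correlations within its group of 3. The rule was that 1 minus its best correlation exceeded 2 times 1 minus the correlation between the other libraries. 6 libraries met it: Rescue 72 h LCM replicate 2, Rescue 24 h LCM replicate 3, PKP4-KO 72 h LCM replicate 2, PKP4-KO 24 h HCM replicate 3, PKP4-KO 24 h LCM replicate 1 and WT 72 h HCM replicate 3. They were kept, and counts without them are given where these differ. In RNA from whole cultures, fewer cells that express a gene and less of its RNA per cell cannot be told apart.

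Summed over the 45 genes, the level of the envelope genes was 2010.2 ± 389 CPM (mean ± SD, n = 3 here and for every group below) in WT at 24 h in LCM and 23497 ± 7803 in WT at 72 h in HCM. PKP4-KO libraries went from 2573 ± 821 to 36065 ± 4984, and Rescue cells from 3012 ± 690.4 to 22616 ± 1628. Without TMM factors the sum was 1.68% to 2.13% of all reads in PKP4-KO at 72 h in HCM, 1.80% to 2.29% in WT and 2.54% to 2.84% in Rescue. The order of the 3 genotypes therefore depends on the scaling, with the lowest mean in Rescue with TMM factors and the highest without them. The make-up of the sum differed between them. At 72 h in HCM the Sprr2a genes gave 15485 ± 901 CPM in PKP4-KO against 2937 ± 512 in WT and 1051 ± 65.4 in Rescue, whereas the Lce1 genes gave 123 ± 4.25, 1204 ± 200.4 and 1220.5 ± 226. Per kilobase of merged exons, the highest levels in WT at 72 h in HCM were those of Sprr1a (10654 CPM per kb), Sprr1b (3668), Sprr2d (2784), Lce3c (1869) and Sprr2h (1795). The lowest tested members were Tchh (0.624), Lce6a (0.462), Tchhl1 (0.384), Crnn (0.09999), Hrnr (0.0337) and Flg (0.0286). Over the 395 combinations of member and group with a mean of at least 1 CPM, the SD between libraries was 25.9% of the mean at the median.

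**Figure D1:**
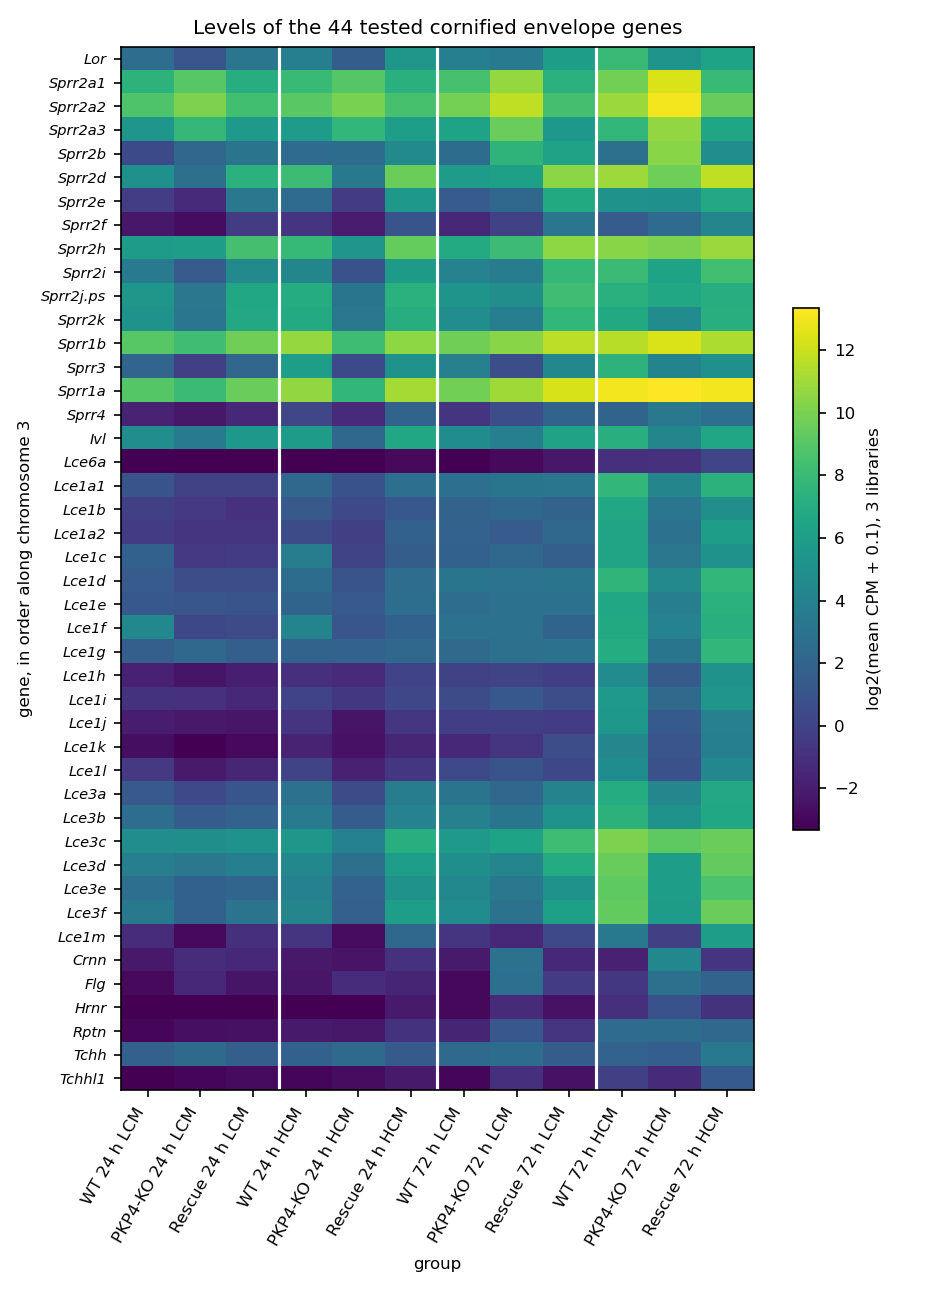
Mean level of each of the 44 tested genes (rows, in order along chromosome 3) in the 12 groups (columns), as log2(mean CPM + 0.1) over 3 libraries. The block of Lce1 genes is bright in WT and Rescue at 72 h in HCM and dark in PKP4-KO, while the Sprr2a rows are brightest in PKP4-KO.

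**Figure D2:**
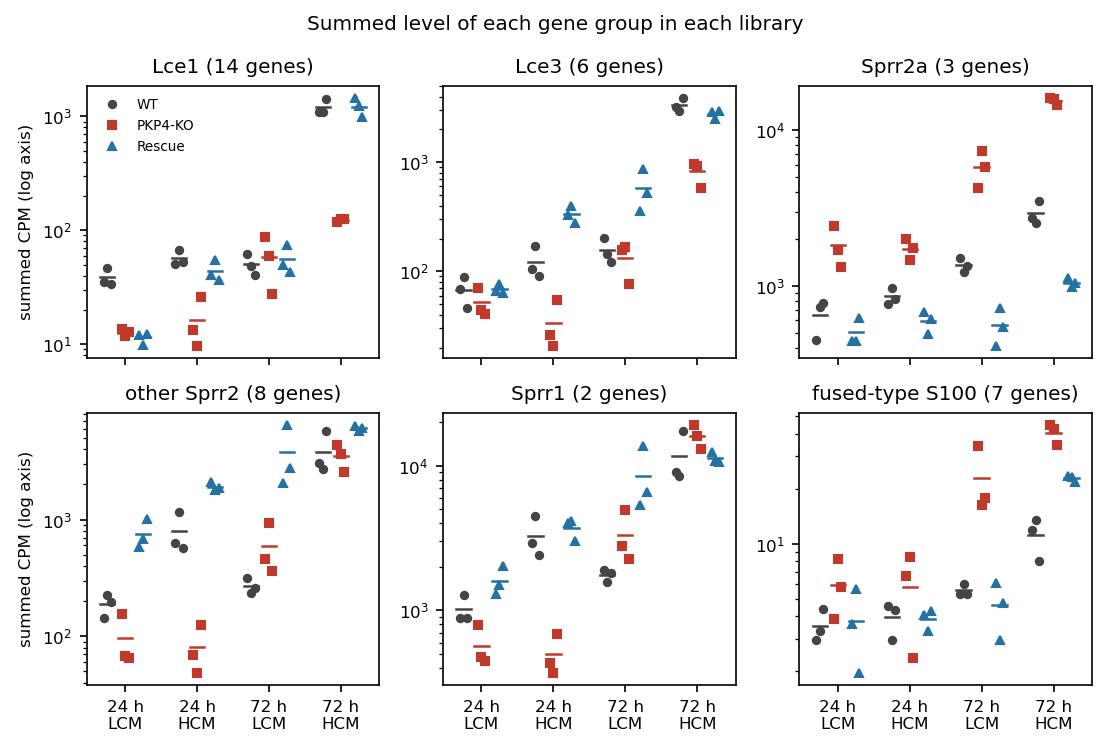
Summed CPM (log axis) of 6 gene groups in each library, by time and medium; points are libraries, bars are means of 3. Lce1 sums at 72 h in HCM lie at means of 1204 and 1220.5 CPM in WT and Rescue and at 123 CPM in PKP4-KO, and the mean Sprr2a sum is highest in PKP4-KO under all 4 conditions.

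The first comparison was HCM against LCM within each genotype, which asks how the envelope genes respond to calcium. In WT cells at 24 h, 16 of 44 members were called higher and 0 lower (an adjusted p under 0.05 in the quasi-likelihood F test of edgeR, corrected over all tested genes by the Benjamini-Hochberg method, here and throughout), while 7.69% of the 15114 genes tested were called higher and 6.48% lower. The 16 included 6 of 8 Sprr2 genes outside the Sprr2a copies, both Sprr1 genes, Sprr3, Ivl and Lor, but 3 of 14 Lce1 and 2 of 6 Lce3 genes. By 72 h, 41 of 44 were higher and 0 lower, against a background in which 10.6% of the 15114 genes tested were called higher and 10.8% lower; the median log2 fold change was 4.01 over the members and 0.01 over all genes tested. All 14 Lce1 and all 6 Lce3 genes rose. The 3 members not called were Sprr2b, Crnn and Tchh.

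Values of 3 members show the range of the calcium responses in WT. Sprr3, a small proline-rich protein gene of stratified epithelia, read 3.65, 5.89 and 3.28 CPM in the 3 LCM libraries and 67.7, 81.5 and 39 in the 3 HCM libraries at 24 h, with no overlap (3.88 ± 0.42, adjusted p = 9.93e-08; log2 fold change ± SE). Ivl, encoding the scaffold protein involucrin, rose from 29.3 ± 7.3 to 58.1 ± 2.99 CPM at 24 h (0.99 ± 0.27, adjusted p = 0.0113) and stood at 144 ± 17.1 against 27.7 ± 2.13 at 72 h. The 24 h difference of Ivl without TMM factors was 0.68 (adjusted p = 0.18). Lce1g, whose log2 fold change at 24 h (0.25) was smaller than the median of the 14 Lce1 genes (1.05, with 3 called), was at 3.38, 4.32 and 1.87 in LCM and 3.3, 5.17 and 2.96 CPM in HCM at 24 h, where the libraries overlapped. At 72 h it read 6.17, 5.23 and 4.41 CPM in LCM and 124, 114 and 149 in HCM (4.61 ± 0.39, adjusted p = 6.00e-10). The HCM libraries were then all far above the LCM ones.

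In PKP4-KO cells at 24 h, 0 members were called higher and 1, Ivl, lower in HCM (-1.33 ± 0.28, adjusted p = 0.00669), and 1.44% of the 15114 genes tested were called higher and 1.4% lower; 5 members had an unadjusted p under 0.05, and DESeq2 called the same number, 1. The Ivl libraries read 8.74, 14.4 and 12.1 CPM in LCM and 6.01, 4.89 and 3.03 in HCM and did not overlap, but without TMM factors the adjusted p was 0.0508, and the call was also lost without PKP4-KO 24 h LCM replicate 2 or without 24 h HCM replicate 3. At 72 h, 34 of 44 members were higher in HCM and 0 lower, with a median log2 fold change of 1.71, while 12.9% of the 15114 genes tested were called higher and 19.7% lower. The rise of the Lce1 genes was small: 10 of 14 were called, and Lce1d, for example, went from 8.18 ± 4.66 to 23.3 ± 3.26 CPM (1.52 ± 0.37, adjusted p = 0.00248). Without TMM factors 7 of these 10 calls were lost (Lce1a1, Lce1b, Lce1c, Lce1e, Lce1f, Lce1i and Lce1j), and the count over all members became 25 higher and 1 lower. Ivl read 14.7 ± 8.09 CPM in LCM and 20.3 ± 3.06 in HCM and was not called. Sprr2d and Sprr3, by contrast, rose by 3.54 and 3.66 on the log2 scale, Sprr3 from 1.52 ± 0.801 to 18.5 ± 1.27 CPM.

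Rescue cells responded at 24 h in 24 members, all higher (6% of the 15114 genes tested were called higher and 5.96% lower), including 10 of 14 Lce1 and all 6 Lce3 genes. Lce3f went from 8.65, 8.53 and 8.05 CPM to 61.4, 74.8 and 51.6 CPM (2.89 ± 0.35, adjusted p = 8.92e-07), with no overlap. At 72 h, 28 members were higher and 1, Sprr2j.ps, lower (13% of the 15114 genes tested were called higher and 12% lower). All 14 Lce1 and 6 Lce3 genes were again higher, with Lce1g at 7.33, 8.62 and 5.98 CPM in LCM and 246, 221 and 172 in HCM (4.87 ± 0.39, adjusted p = 4.08e-10). Of the 15 Sprr genes, 3 were called higher in HCM, Sprr2a2, Sprr2a3 and Sprr2d. Sprr2d read 764, 2347 and 1034 CPM in LCM and 3463, 3209.9 and 3584 in HCM, without overlap. Sprr2e read 55.9, 194 and 80.9 in LCM and 98.3, 92.3 and 129 in HCM, where the libraries overlapped. The highest LCM value of both genes was that of replicate 2, 1 of the 6 libraries that stood apart. Without those 6 libraries 34 members were called higher and 1 lower, and Sprr2j.ps was no longer called.

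**Figure D3:**
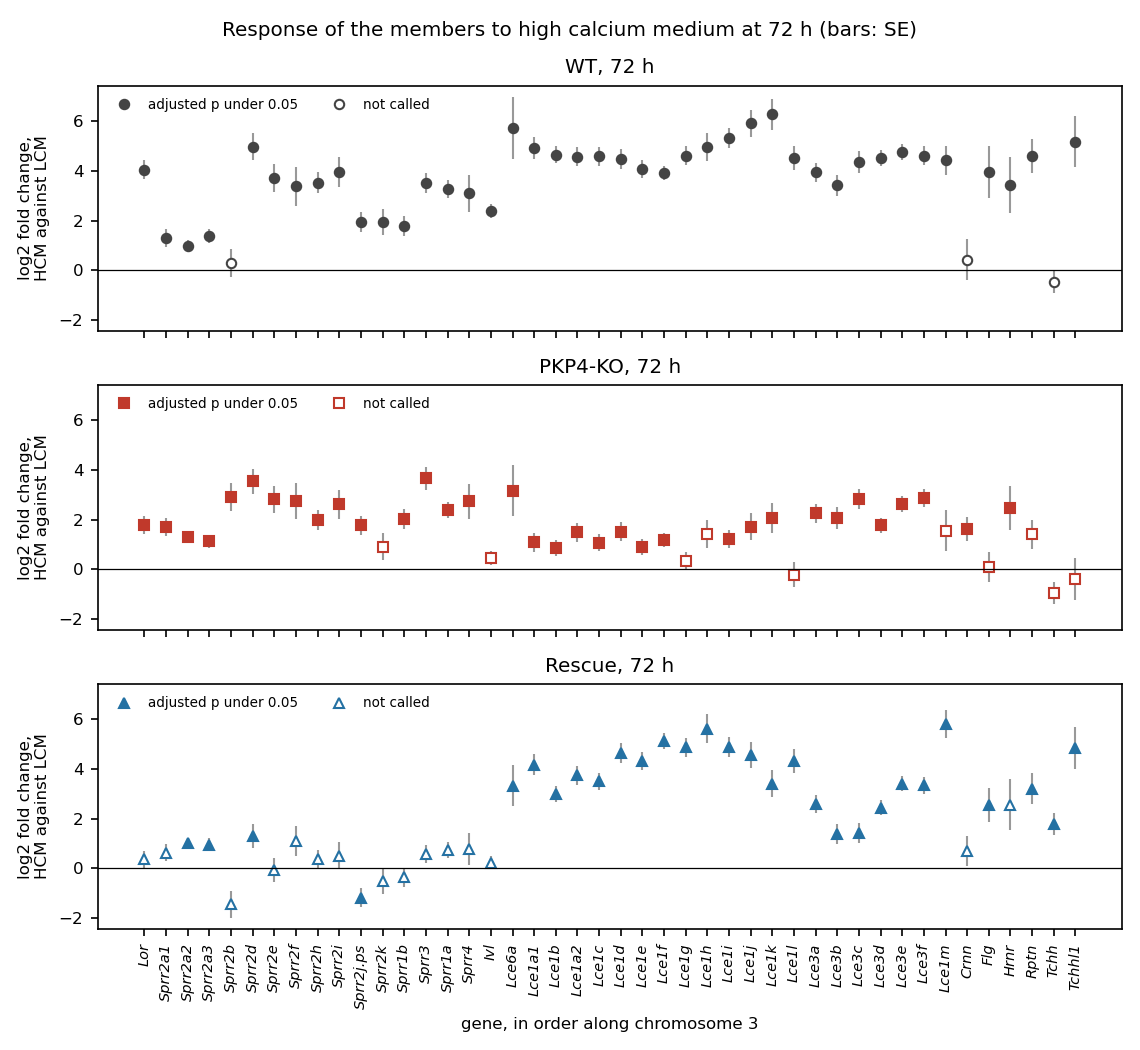
Log2 fold change of HCM against LCM at 72 h for the 44 tested genes in order along chromosome 3, one panel per genotype; bars are SE, filled symbols have an adjusted p under 0.05 and open ones do not. In WT the Lce1 block lies at 3.91 to 6.29, in PKP4-KO at -0.21 to 2.06, and in Rescue at 3.01 to 5.81, while the Sprr genes of Rescue lie between -1.44 and 1.31.

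The difference of these calcium effects between genotypes was tested directly. PKP4-KO minus WT was lower in 5 members at 24 h (Sprr2d, Sprr2h, Sprr3, Sprr1a and Ivl) and higher in 0, against a background of 2.79% lower and 1.23% higher; 15 members had an unadjusted p under 0.05 and DESeq2 called 8. At 72 h it was lower in 20 and higher in 1, Sprr2b, where 3.88% of all genes were lower and 1.85% higher. The 20 held 13 of 14 Lce1 genes, Lce3d, Lce3e, Lce3f, Ivl, Lor, Rptn and Tchhl1, and none of the Sprr genes. For Lce1g the effect was 4.61 in WT and 0.33 in PKP4-KO, a difference of -4.28 ± 0.51, adjusted p = 3.18e-06. Rescue minus PKP4-KO was higher in 7 members at 24 h (Sprr1a, Ivl and 5 Lce3 genes) and lower in 0, where 0.992% of all genes were higher and 0.417% lower. At 72 h it was higher in 16 and lower in 10, against 18.1% and 13.4% of all genes. The 16 were 13 Lce1 genes, Flg, Tchh and Tchhl1; the 10 were Lor and 9 Sprr genes. Without TMM factors this split became 23 higher and 7 lower, and the median of all genes in that comparison moved by 0.81.

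The second comparison was 72 h against 24 h in the same medium. In HCM, 36 members were higher and 0 lower in WT (9.16% of the 15114 genes tested were called higher and 8.69% lower). PKP4-KO had 43 and 0 (24.3% of the 15114 genes tested were called higher and 31.4% lower) and Rescue 31 and 0 (13.6% of the 15114 genes tested were called higher and 10.7% lower). In LCM, 16 members were higher and 1, Lce1f, lower in WT (5.29% of the 15114 genes tested were called higher and 4.66% lower); without the 6 libraries that stood apart, 26 were higher and 1 lower. In PKP4-KO in LCM, 37 members were higher and 0 lower (12.4% of the 15114 genes tested were called higher and 13.7% lower), and in Rescue 32 and 0 (6.84% of the 15114 genes tested were called higher and 2.96% lower). The median log2 fold change of the members with time was 3.96 in HCM and 1.19 in LCM for WT, 3.81 and 2.54 for PKP4-KO, and 3.20 and 2.63 for Rescue. With members at 0 reads in every library of 1 group set to the bound that 3 reads allow, it was 3.25 in HCM for WT, and 3.70 in HCM and 2.5 in LCM for PKP4-KO. Under library sizes without TMM factors, the count in PKP4-KO in HCM was 40 higher and 1 lower, and the median of all genes moved by -1.06.

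In PKP4-KO cells Sprr2b read 5.13, 3.1 and 9.75 CPM at 24 h in HCM and 1591, 1424 and 1018 at 72 h (7.83 ± 0.72, adjusted p = 5.08e-10), whereas the WT libraries read 4.58, 9.34 and 3.16 and 5.26, 4.29 and 12 and overlapped. Crnn, encoding the fused-type S100 protein cornulin, read 0.14, 0.0418 and 0.0739 CPM at 24 h and 22.5, 25.7 and 19 at 72 h in the same cells. In WT the corresponding Crnn values were 0.155, 0 and 0.204 and 0.354, 0 and 0.205 CPM, with overlap. Sprr1a, the gene of a bridging protein, rose in all 3 genotypes in HCM, from 1584 ± 455 to 8587 ± 3227 CPM in WT, from 208 ± 53.2 to 10502 ± 2404 in PKP4-KO cells and from 2235 ± 469 to 8720.1 ± 765 in Rescue. At 24 h in HCM its PKP4-KO libraries were all below the WT ones, and at 72 h the 2 genotypes overlapped.

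The third comparison set the genotypes side by side under each condition. PKP4-KO against WT gave 3 members higher and 25 lower at 24 h in HCM (20.7% of the 15114 genes tested were called higher and 22.2% lower). There were 7 higher and 25 lower at 72 h in HCM (21.9% of the 15114 genes tested were called higher and 29.9% lower). LCM gave 4 higher and 15 lower at 24 h (19.7% of the 15114 genes tested were called higher and 20.6% lower) and 11 higher and 5 lower at 72 h (21.3% of the 15114 genes tested were called higher and 23.8% lower). The median log2 fold change of the members was -1.71, -2.14, -0.90 and 0.38, and that of all genes between -0.07 and 0.02. Against these background shares, members called lower were in excess in HCM at both times and in LCM at 24 h, and members called higher were few except at 72 h in LCM. Scaled by library size alone, without TMM, the split at 72 h in HCM was 6 higher and 29 lower, with the median of all genes moved by -0.76, and that at 72 h in LCM was 10 higher and 10 lower, with the median moved by -0.37. Without the 6 libraries that stood apart, the split at 72 h in LCM was 11 higher and 11 lower.

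Rescue against WT gave 13 members higher and 3 lower at 24 h in HCM (11.8% of the 15114 genes tested were called higher and 11.4% lower) and 6 and 8 at 72 h in HCM (19.5% of the 15114 genes tested were called higher and 16.7% lower). The counts in LCM were 6 and 2 at 24 h (13.5% of the 15114 genes tested were called higher and 11.4% lower) and 22 and 4 at 72 h (17.9% of the 15114 genes tested were called higher and 14.6% lower). Without TMM factors the split was 13 higher and 8 lower at 72 h in HCM and 6 and 6 at 24 h in LCM. Without the 6 libraries that stood apart it was 12 higher and 9 lower at 72 h in HCM and 7 and 4 at 24 h in LCM. Rescue against PKP4-KO gave 33 higher and 3 lower at 24 h in HCM (21.7% of the 15114 genes tested were called higher and 19% lower) and 28 and 7 at 72 h in HCM (37.2% of the 15114 genes tested were called higher and 29.5% lower). Its counts in LCM were 14 and 3 at 24 h (18.2% of the 15114 genes tested were called higher and 15.5% lower) and 20 and 8 at 72 h (23.3% of the 15114 genes tested were called higher and 18.3% lower). These comparisons share their WT or PKP4-KO libraries, so their values are given side by side for each gene group.

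**Figure D4:**
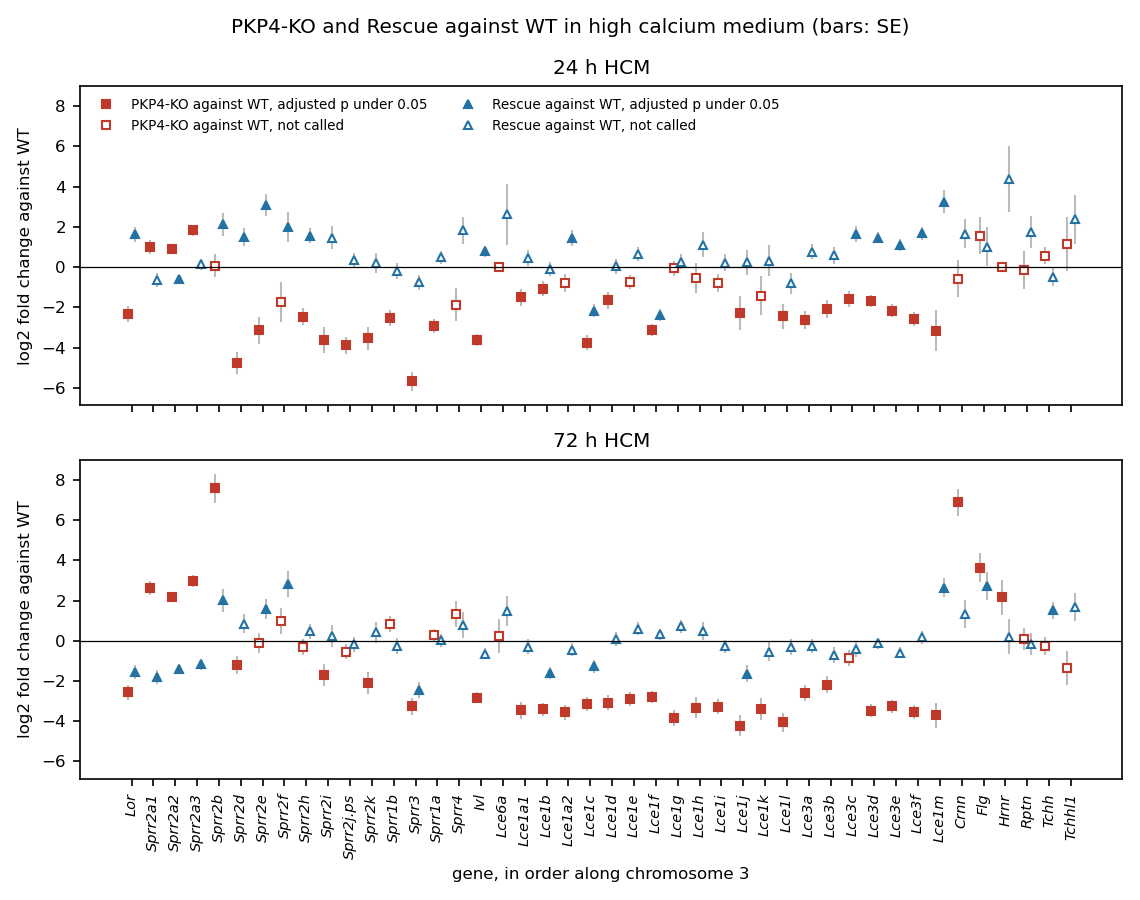
Log2 fold change against WT of PKP4-KO (squares) and Rescue (triangles) in HCM at 24 h (top) and 72 h (bottom), genes in order along chromosome 3; bars are SE, filled symbols have an adjusted p under 0.05. At 72 h the Lce1 genes of PKP4-KO lie between -4.21 and -2.79 while the 3 Sprr2a genes lie between 2.19 and 2.97, and those Sprr2a genes lie between -1.82 and -1.17 in Rescue.

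Ivl and Lor, the genes of the early scaffold and of the main late structural protein, were lower in PKP4-KO in HCM. Ivl read 154, 154 and 124 CPM in the WT libraries, 23.4, 20.2 and 17.3 in PKP4-KO cells and 72.5, 83.2 and 122 in Rescue at 72 h in HCM. The PKP4-KO libraries lay below all others (-2.83 ± 0.29, adjusted p = 4.01e-09 against WT). The Rescue libraries lay between, and their difference from WT was not called (-0.64 ± 0.26, adjusted p = 0.0586). At 24 h in HCM Ivl averaged 58.1, 4.65 and 101 CPM in WT, PKP4-KO and Rescue, at 24 h in LCM 29.3, 11.8 and 46.4 and at 72 h in LCM 27.7, 14.7 and 79.5. Ivl was called lower in PKP4-KO than in WT under all 4 conditions. Lor, encoding loricrin, read 223, 249 and 243 CPM in WT, 41.9, 35.5 and 43.9 in PKP4-KO cells and 94.2, 91.6 and 55.3 in Rescue at 72 h in HCM. PKP4-KO was lower than WT (-2.56 ± 0.37, adjusted p = 1.72e-06), and Rescue lay between the 2, lower than WT (-1.57 ± 0.35, adjusted p = 0.00103) and higher than PKP4-KO (0.99 ± 0.35, adjusted p = 0.0156). Its means were 6.16, 2.06 and 9.11 CPM at 24 h in LCM, 14.5, 2.87 and 45.2 at 24 h in HCM and 14.4, 11.8 and 62.5 at 72 h in LCM for WT, PKP4-KO and Rescue in that order.

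The Sprr2a copies went the other way. All 3 were higher in PKP4-KO than in WT under all 4 conditions, and lower in Rescue than in PKP4-KO under all 4. Sprr2a2 read 1797, 1716 and 2010.1 CPM in WT, 8562, 8723 and 7891 in PKP4-KO cells and 741, 693 and 683 in Rescue at 72 h in HCM, with no overlap among the 3 genotypes. PKP4-KO was higher than WT (2.19 ± 0.22, adjusted p = 4.01e-09) and Rescue lower (-1.38 ± 0.22, adjusted p = 1.40e-05). Without TMM factors the first of these was 1.43 (adjusted p = 2.35e-07). Sprr2a1 averaged 176, 515 and 135 CPM at 24 h in LCM, 244, 489.7 and 156 at 24 h in HCM, 361, 1665 and 163 at 72 h in LCM and 887 ± 316, 5448 ± 441 and 252 ± 32.1 at 72 h in HCM (here and below, WT, PKP4-KO and Rescue in that order, with SD at the last condition). Sprr2a2 averaged 434, 1089 and 319 CPM at 24 h in LCM, 555, 1033 and 371 at 24 h in HCM, 924, 3402 and 348 at 72 h in LCM and 1841 ± 152, 8392 ± 442 and 706 ± 31.4 at 72 h in HCM. Sprr2a3 averaged 43.5, 216 and 48.8 CPM at 24 h in LCM, 59.2, 209.9 and 65 at 24 h in HCM, 80.5, 754 and 48.4 at 72 h in LCM and 209.5 ± 44.8, 1645 ± 40.5 and 93.4 ± 9.64 at 72 h in HCM. Because reads of these copies cannot be assigned with certainty, their sum is the firmer measure: it was 654 ± 178, 1819.5 ± 569 and 503 ± 105 CPM at 24 h in LCM and 1365 ± 139.9, 5820.0 ± 1573 and 559 ± 158 at 72 h in LCM. As the windows printed above show, Sprr2a2 and Sprr2a3 share nearly the same sequence before the start.

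Among the other 8 Sprr2 genes, PKP4-KO against WT gave 6 lower and 0 higher at 24 h in HCM and 3 lower and 1 higher at 72 h in HCM. In LCM it gave 4 lower and 1 higher, Sprr2b, at 24 h and 0 lower and 2 higher, Sprr2b and Sprr2h, at 72 h (1.23 ± 0.39, adjusted p = 0.012 for Sprr2h). Over all genes tested, 22.2% were called lower and 20.7% higher at 24 h in HCM, and 29.9% and 21.9% at 72 h in HCM. The counts of 3 and 1 of 8 at 72 h in HCM were near these shares. In LCM the shares were 20.6% lower and 19.7% higher at 24 h and 23.8% and 21.3% at 72 h. All 8 of these Sprr2 genes were higher in Rescue than in WT at 72 h in LCM, where 17.9% of all genes tested were called higher. Sprr2d, the highest of them per kilobase in WT at 72 h in HCM, read 245, 391 and 201 CPM in WT, 11.1, 5.69 and 14.5 in PKP4-KO cells and 885, 765 and 718 in Rescue at 24 h in HCM. The 3 genotypes did not overlap, with PKP4-KO lower than WT (-4.75 ± 0.54, adjusted p = 2.88e-08) and Rescue higher (1.5 ± 0.47, adjusted p = 0.0195). Sprr2d averaged 33.3, 6.88 and 159.6 CPM at 24 h in LCM, 279, 10.4 and 789 at 24 h in HCM, 60.5, 70.9 and 1381 at 72 h in LCM and 1896 ± 772, 821 ± 317 and 3419 ± 191 at 72 h in HCM. Sprr2e averaged 0.725, 0.302 and 10.1 CPM at 24 h in LCM, 5.64, 0.687 and 47.4 at 24 h in HCM, 2.71, 4.79 and 110.3 at 72 h in LCM and 36.1 ± 17.2, 32.8 ± 9.04 and 106 ± 19.6 at 72 h in HCM. In Rescue at 72 h in LCM both stood far above WT and PKP4-KO. Sprr2f averaged 0.107, 0.047 and 0.654 CPM at 24 h in LCM, 0.476, 0.147 and 1.92 at 24 h in HCM, 0.272, 0.854 and 9.32 at 72 h in LCM and 2.83 ± 1.57, 5.53 ± 2.87 and 19.9 ± 2.64 at 72 h in HCM. Sprr2h averaged 59.2, 62.4 and 344 CPM at 24 h in LCM, 234, 42.6 and 696 at 24 h in HCM, 117, 274 and 1443 at 72 h in LCM and 1350.2 ± 561, 1092 ± 230.5 and 1869 ± 216 at 72 h in HCM. Sprr2i averaged 11, 2.72 and 25.5 CPM at 24 h in LCM, 20.1, 1.74 and 55.6 at 24 h in HCM, 17, 13.2 and 219.8 at 72 h in LCM and 265 ± 164, 80.7 ± 26.4 and 312 ± 20.7 at 72 h in HCM. Sprr2h was not called between PKP4-KO and WT at 72 h in HCM, while Sprr2i was lower there (-1.72 ± 0.56, adjusted p = 0.0116). Sprr2j.ps averaged 44.7, 9.73 and 100.1 CPM at 24 h in LCM, 128, 8.72 and 163 at 24 h in HCM, 39.7, 30.7 and 303 at 72 h in LCM and 152 ± 67.1, 105 ± 15.1 and 134 ± 5.33 at 72 h in HCM. Sprr2k averaged 38.1, 9.47 and 109 CPM at 24 h in LCM, 118, 10.2 and 137 at 24 h in HCM, 28.4, 13.8 and 212 at 72 h in LCM and 109.8 ± 59.1, 25.8 ± 2.71 and 147 ± 9.82 at 72 h in HCM. Neither was called with time in HCM in WT, and at 24 h in HCM the PKP4-KO libraries of both lay below all WT libraries.

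Sprr2b, the copy next to Sprr2a3, was the 1 gene of these 8 called above WT in PKP4-KO at 72 h in HCM. Sprr2b averaged 1.22, 4.52 and 8.55 CPM at 24 h in LCM and 5.69, 5.99 and 24.6 at 24 h in HCM. For Sprr2b at 72 h the means were 5.75, 180.4 and 77.9 CPM in LCM and 7.18 ± 4.2, 1344 ± 295 and 28.6 ± 3.76 in HCM. The 72 h HCM difference (7.58 ± 0.71, adjusted p = 9.57e-10) was the largest positive difference of any member in that comparison. It was higher at 72 h in LCM too (4.97 ± 0.63, adjusted p = 2.58e-07). Rescue was again lower than PKP4-KO at 72 h in HCM (-5.55 ± 0.64, adjusted p = 3.17e-08) and not called at 72 h in LCM.

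Of the remaining SPRR genes, Sprr1a averaged 488, 264 and 738 CPM at 24 h in LCM and 1584, 208 and 2235 at 24 h in HCM. For Sprr1a at 72 h the means were 889, 2003 and 5254 CPM in LCM and 8587 ± 3227, 10502 ± 2404 and 8720.1 ± 765 in HCM. Sprr1b averaged 529.7, 308 and 869 CPM at 24 h in LCM, 1679, 289.6 and 1477 at 24 h in HCM, 875, 1329.8 and 3267 at 72 h in LCM and 3045 ± 1697, 5489 ± 739 and 2558 ± 276 at 72 h in HCM. Both Sprr1 genes were lower in PKP4-KO at 24 h in HCM (Sprr1a -2.93 ± 0.34, adjusted p = 3.78e-08 and Sprr1b -2.54 ± 0.41, adjusted p = 9.49e-06), and neither was called at 72 h in HCM. Sprr1b was lower in Rescue than in PKP4-KO at 72 h in HCM (-1.1 ± 0.39, adjusted p = 0.0156), but without TMM factors its log2 fold change was 0.07 (adjusted p = 0.814), the opposite sign. Sprr3 averaged 4.27, 0.799 and 4.5 CPM at 24 h in LCM and 62.8, 1.24 and 37.5 at 24 h in HCM. For Sprr3 at 72 h the means were 15.5, 1.52 and 21.9 CPM in LCM and 179 ± 78.3, 18.5 ± 1.27 and 32.6 ± 4.67 in HCM. Sprr3 was lower in PKP4-KO than in WT under all 4 conditions (-5.67 ± 0.47, adjusted p = 6.84e-11 at 24 h in HCM), and at 72 h in HCM it was lower than WT in Rescue too (-2.45 ± 0.38, adjusted p = 1.48e-05). Sprr4 averaged 0.202, 0.111 and 0.273 CPM at 24 h in LCM and 1.08, 0.289 and 3.81 at 24 h in HCM. For Sprr4 at 72 h the means were 0.463, 1.53 and 4.03 CPM in LCM and 3.99 ± 1.88, 9.99 ± 1.61 and 6.82 ± 1.02 in HCM. Sprr4 was not called between PKP4-KO and WT under any condition.

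At 72 h in HCM each of the 14 Lce1 genes was below WT in PKP4-KO, and each was above PKP4-KO in Rescue. Over all genes tested, 29.9% were called lower in the first comparison and 37.2% higher in the second. Against WT, 1 was higher in Rescue, Lce1m, and 3 were lower, Lce1b, Lce1c and Lce1j. There 19.5% of all genes tested were called higher and 16.7% lower. The summed level was 1090.5, 1086 and 1435 CPM in the WT libraries, 118, 126 and 124 in PKP4-KO cells and 1441, 1231 and 989.9 in Rescue. WT and Rescue overlapped and PKP4-KO lay below both. Lce1l had a difference of -4.06 ± 0.49, adjusted p = 8.65e-08 between PKP4-KO and WT and 3.73 ± 0.48, adjusted p = 2.15e-07 between Rescue and PKP4-KO. At 72 h in LCM, by contrast, 0 of 14 were called between PKP4-KO and WT in either direction. In that comparison 21.3% of all genes tested were called higher and 23.8% lower.

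The single genes showed similar courses. Lce1a1 averaged 1.9, 0.852 and 0.853 CPM at 24 h in LCM, 4.94, 1.78 and 6.67 at 24 h in HCM, 6.85, 8.95 and 9.31 at 72 h in LCM and 207 ± 45.1, 18.9 ± 1.73 and 168 ± 30.4 at 72 h in HCM. Lce1b averaged 0.803, 0.572 and 0.409 CPM at 24 h in LCM, 2.38, 1.2 and 2.21 at 24 h in HCM, 3.81, 4.96 and 3.93 at 72 h in LCM and 96.1 ± 14.2, 9.07 ± 1.35 and 31.5 ± 3.53 at 72 h in HCM. Lce1a2 averaged 0.698, 0.469 and 0.464 CPM at 24 h in LCM, 1.3, 0.801 and 3.45 at 24 h in HCM, 3.61, 2.64 and 4.8 at 72 h in LCM and 86.2 ± 17.9, 7.31 ± 0.85 and 63.4 ± 9.72 at 72 h in HCM. The first 2 of these share 2.15% and 1.46% of their words with other Lce1 genes, and the third shares none. Lce1d averaged 2.68, 1.43 and 1.49 CPM at 24 h in LCM, 5.85, 1.96 and 6.03 at 24 h in HCM, 8.86, 8.18 and 8.39 at 72 h in LCM and 196 ± 29.9, 23.3 ± 3.26 and 210.4 ± 46.5 at 72 h in HCM. Lce1e averaged 2.31, 2.13 and 1.91 CPM at 24 h in LCM, 4.07, 2.47 and 6.36 at 24 h in HCM, 6.11, 7.57 and 7.89 at 72 h in LCM and 104 ± 24.4, 14.1 ± 1.42 and 159 ± 41.1 at 72 h in HCM. Lce1g averaged 3.19, 4.71 and 3.18 CPM at 24 h in LCM, 3.81, 3.76 and 4.56 at 24 h in HCM, 5.27, 7.18 and 7.31 at 72 h in LCM and 129 ± 18.3, 8.99 ± 0.141 and 213 ± 37.3 at 72 h in HCM. In each of the 3, the Rescue mean at 72 h in HCM was above the WT mean and PKP4-KO was the lowest of the 3 genotypes.

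In the lower members PKP4-KO again had the lowest mean at 72 h in HCM, while the Rescue mean was below that of WT in Lce1i, Lce1j, Lce1k and Lce1l and above it in Lce1h and Lce1m. Lce1h averaged 0.189, 0.0893 and 0.161 CPM at 24 h in LCM, 0.404, 0.307 and 0.904 at 24 h in HCM, 0.837, 0.99 and 0.756 at 72 h in LCM and 26.1 ± 4.53, 2.6 ± 0.946 and 36.8 ± 5.76 at 72 h in HCM. Lce1i averaged 0.451, 0.412 and 0.262 CPM at 24 h in LCM, 0.917, 0.556 and 1.05 at 24 h in HCM, 1.33, 2.34 and 1.5 at 72 h in LCM and 52.7 ± 15.6, 5.46 ± 0.842 and 43.7 ± 8.3 at 72 h in HCM. Lce1j averaged 0.15, 0.121 and 0.105 CPM at 24 h in LCM, 0.461, 0.0959 and 0.526 at 24 h in HCM, 0.771, 0.757 and 0.63 at 72 h in LCM and 46.8 ± 14.6, 2.52 ± 0.216 and 15 ± 2.61 at 72 h in HCM. All were under 3 CPM before 72 h in HCM in every genotype. Lce1k averaged 0.0526, 0 and 0.037 CPM at 24 h in LCM, 0.219, 0.0787 and 0.252 at 24 h in HCM, 0.26, 0.498 and 1.41 at 72 h in LCM and 21.2 ± 10.3, 2.01 ± 0.152 and 14.4 ± 1.53 at 72 h in HCM. Lce1l averaged 0.568, 0.126 and 0.251 CPM at 24 h in LCM, 0.978, 0.183 and 0.558 at 24 h in HCM, 1.19, 1.94 and 1.13 at 72 h in LCM and 27.9 ± 7.36, 1.68 ± 0.278 and 22.2 ± 6.07 at 72 h in HCM. Lce1m averaged 0.34, 0.0312 and 0.392 CPM at 24 h in LCM, 0.491, 0.045 and 4.88 at 24 h in HCM, 0.496, 0.257 and 1.17 at 72 h in LCM and 10.5 ± 0.201, 0.784 ± 0.306 and 65.4 ± 10.3 at 72 h in HCM. Lce1m lies apart from the other Lce1 genes, beyond the Lce3 genes, and was the only one called higher in Rescue than in WT at 72 h in HCM (2.63 ± 0.48, adjusted p = 1.02e-04).

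Lce1c and Lce1f differed between the genotypes before differentiation. Lce1c averaged 3.59, 0.588 and 0.672 CPM at 24 h in LCM and 12.8, 0.963 and 2.88 at 24 h in HCM. For Lce1c at 72 h the means were 3.58, 4.59 and 3.16 CPM in LCM and 85.8 ± 7.26, 9.59 ± 0.272 and 35.7 ± 5.998 in HCM. Lce1f averaged 21.7, 1.1 and 1.27 CPM at 24 h in LCM, 18.2, 2.12 and 3.47 at 24 h in HCM, 7.59, 7.26 and 4.1 at 72 h in LCM and 114 ± 6.53, 16.5 ± 1.47 and 142 ± 20.3 at 72 h in HCM. At 24 h in LCM Lce1f read 18.8, 24.9 and 21.3 CPM in WT, 1.55, 0.954 and 0.796 in PKP4-KO cells and 1.14, 1.24 and 1.44 in Rescue. The WT libraries were all above the others, with both PKP4-KO (-4.33 ± 0.32, adjusted p = 8.76e-12) and Rescue (-4.09 ± 0.31, adjusted p = 6.25e-11) called lower. PKP4-KO and Rescue libraries overlapped there and were not called different (0.24 ± 0.34, adjusted p = 0.662). Lce1c was likewise lower than WT at 24 h in LCM in PKP4-KO (-2.58 ± 0.41, adjusted p = 9.96e-06) and in Rescue (-2.47 ± 0.40, adjusted p = 3.02e-05). These were the only 2 members lower in Rescue than in WT at 24 h in LCM.

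The Lce3 genes are known in skin to be induced by wounding and inflammation. PKP4-KO fell short of WT in 6 of 6 at 24 h in HCM and in 5 of 6 at 72 h in HCM, and Rescue exceeded PKP4-KO in 6 and 5 of 6. Over all genes tested, 22.2% and 29.9% were called lower in PKP4-KO than in WT at these times. The shares called higher in Rescue than in PKP4-KO were 21.7% and 37.2%. Lce3f read 651, 594 and 709.5 CPM in WT, 64.4, 59.5 and 44.6 in PKP4-KO cells and 752, 659.8 and 807 in Rescue at 72 h in HCM. PKP4-KO lay far below the other genotypes (-3.54 ± 0.36, adjusted p = 3.47e-09 against WT), and Rescue and WT overlapped. Lce3a averaged 2.47, 1.19 and 2.1 CPM at 24 h in LCM, 7.63, 1.3 and 12.9 at 24 h in HCM, 8.27, 4.44 and 17.7 at 72 h in LCM and 127 ± 20.3, 20.9 ± 3.33 and 106 ± 15.5 at 72 h in HCM. Lce3b averaged 6.47, 2.85 and 3.68 CPM at 24 h in LCM, 11.3, 2.8 and 16.8 at 24 h in HCM, 15.5, 8.69 and 38.4 at 72 h in LCM and 165 ± 49.8, 36 ± 3.99 and 100.4 ± 11.2 at 72 h in HCM. Lce3c averaged 28.2, 31.4 and 36 CPM at 24 h in LCM, 46.2, 15.7 and 145 at 24 h in HCM, 51.4, 82.8 and 295 at 72 h in LCM and 1059 ± 219, 588 ± 169.8 and 791 ± 96.5 at 72 h in HCM. Lce3c was the gene not called between PKP4-KO and WT at 72 h in HCM (-0.85 ± 0.39, adjusted p = 0.0673). Lce3d averaged 13.7, 9.52 and 14.5 CPM at 24 h in LCM, 22.1, 6.91 and 61.1 at 24 h in HCM, 31.7, 19.3 and 122 at 72 h in LCM and 726 ± 107, 65.4 ± 20.4 and 662 ± 54 at 72 h in HCM. Lce3e averaged 6.64, 3.52 and 4.19 CPM at 24 h in LCM, 16.3, 3.7 and 35.4 at 24 h in HCM, 22.1, 10.2 and 37.2 at 72 h in LCM and 599 ± 28.4, 62.4 ± 8.82 and 396 ± 41.3 at 72 h in HCM. Lce3f averaged 10.4, 3.6 and 8.41 CPM at 24 h in LCM, 19.6, 3.39 and 62.6 at 24 h in HCM, 26.6, 7.75 and 72.7 at 72 h in LCM and 652 ± 57.7, 56.2 ± 10.3 and 739.5 ± 74.4 at 72 h in HCM. Since these copies share sequence, the summed level is the firmer value: 3327 ± 476 CPM in WT, 829 ± 213 in PKP4-KO cells and 2795 ± 254 in Rescue at 72 h in HCM, and 156 ± 40.7, 133 ± 49.2 and 582 ± 257 at 72 h in LCM. All 6 were higher in Rescue than in WT at 72 h in LCM, but without the 6 libraries that stood apart Lce3a, Lce3b and Lce3e were not called there.

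Lce6a had reads almost only at 72 h. Its libraries held 3, 7 and 5 reads in WT, 2, 3 and 5 in PKP4-KO cells and 16, 30 and 23 in Rescue at 72 h in HCM, and all libraries of WT in LCM and of every genotype at 24 h in LCM held 0. Lce6a averaged 0, 0 and 0 CPM at 24 h in LCM and 0, 0 and 0.0369 at 24 h in HCM. For Lce6a at 72 h the means were 0, 0.037 and 0.109 CPM in LCM and 0.367 ± 0.172, 0.419 ± 0.158 and 1.001 ± 0.228 in HCM. It was not called between PKP4-KO and WT at 72 h in HCM.

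The fused-type S100 genes were low in these cultures but were the only members besides the Sprr2 genes to be higher in PKP4-KO than in WT at 72 h in HCM. Crnn read 0.354, 0 and 0.205 CPM in WT, 22.5, 25.7 and 19 in PKP4-KO cells and 0.463, 0.662 and 0.285 in Rescue (6.87 ± 0.66, adjusted p = 1.68e-09 for PKP4-KO against WT). WT and Rescue overlapped, and PKP4-KO lay above both. The WT value rests on 8 reads in all 3 libraries. Crnn averaged 0.124, 0.333 and 0.267 CPM at 24 h in LCM and 0.119, 0.0852 and 0.422 at 24 h in HCM. For Crnn at 72 h the means were 0.135, 7.3 and 0.278 CPM in LCM and 0.186 ± 0.178, 22.4 ± 3.38 and 0.47 ± 0.188 in HCM. Flg averaged 0.0368, 0.278 and 0.0891 CPM at 24 h in LCM, 0.102, 0.325 and 0.23 at 24 h in HCM, 0.0299, 6.59 and 0.656 at 72 h in LCM and 0.539 ± 0.372, 7.03 ± 0.816 and 3.78 ± 1.76 at 72 h in HCM. Flg, encoding filaggrin, was higher in PKP4-KO than in WT at 72 h in HCM (3.62 ± 0.72, adjusted p = 1.48e-04) and in LCM, and in Rescue than in WT at 72 h in both media. Its WT level at 72 h in LCM came from 2 reads in all 3 libraries. Hrnr averaged 0, 0 and 0 CPM at 24 h in LCM, 0, 0 and 0.136 at 24 h in HCM, 0.0264, 0.305 and 0.0735 at 72 h in LCM and 0.377 ± 0.0604, 1.73 ± 0.722 and 0.443 ± 0.399 at 72 h in HCM. Rptn averaged 0.0176, 0.0636 and 0.0646 CPM at 24 h in LCM, 0.126, 0.109 and 0.453 at 24 h in HCM, 0.229, 2.25 and 0.509 at 72 h in LCM and 5.57 ± 1.38, 5.95 ± 2.36 and 4.95 ± 1.52 at 72 h in HCM. Hrnr (hornerin) was called higher in PKP4-KO at 72 h in HCM, but without TMM factors its log2 fold change of 1.38 (adjusted p = 0.174) was not called, and Rptn (repetin) was not called. Tchh averaged 3.34, 5.25 and 3.28 CPM at 24 h in LCM, 3.55, 5.23 and 2.51 at 24 h in HCM, 5.1, 5.92 and 2.99 at 72 h in LCM and 3.63 ± 1.85, 3.09 ± 0.478 and 10.6 ± 0.842 at 72 h in HCM. Tchhl1 averaged 0, 0.0167 and 0.0414 CPM at 24 h in LCM, 0.017, 0.045 and 0.129 at 24 h in HCM, 0.0152, 0.398 and 0.0787 at 72 h in LCM and 0.793 ± 0.203, 0.312 ± 0.239 and 2.51 ± 0.194 at 72 h in HCM. Tchh, encoding trichohyalin of the inner root sheath of hair, had the smallest ratio of highest to lowest group mean of any tested member and was called higher in Rescue than in WT at 72 h in HCM (1.51 ± 0.44, adjusted p = 0.00792). Flg2 averaged 0.0379 CPM or less in every group.

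**Figure D5:**
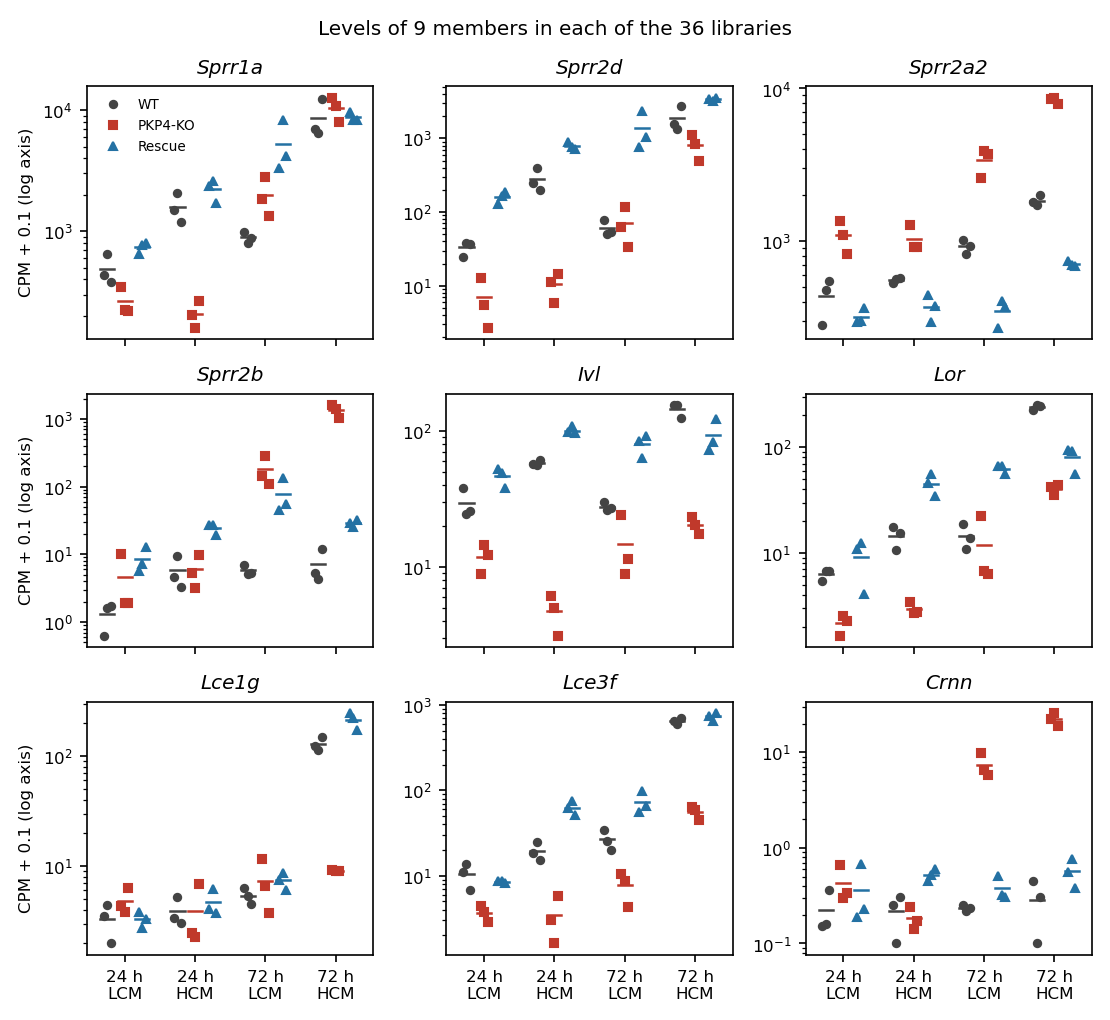
CPM + 0.1 (log axis) of 9 members in each library, by time and medium; points are libraries and bars are means of 3. The PKP4-KO points of Lce1g, Lce3f, Ivl and Lor lie below the other genotypes at 72 h in HCM, and those of Sprr2a2, Sprr2b and Crnn lie above them.

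Genes that act on the envelope were counted in lists of partners. Their counts and levels were computed with TMM factors only and were not recomputed under another scaling. Without TMM factors the median of all genes moved by -0.76 in PKP4-KO against WT at 72 h in HCM. Of the 4 cross-linking enzymes, PKP4-KO against WT had 3 lower and 1 higher at 24 h in HCM and 3 higher and 0 lower at 72 h in HCM, where 20.7% of the 15114 genes tested were called higher and 22.2% lower at 24 h and 21.9% and 29.9% at 72 h. Tgm1, the membrane-bound transglutaminase of keratinocytes, was at 14.7 against 177 CPM at 24 h (PKP4-KO against WT) and 476 against 93.6 CPM at 72 h. Tgm3, the epidermal transglutaminase, was at 730.5 against 56.5 CPM at 72 h. Tgm5 was also higher at 72 h, and Tgm2 was not called. In Rescue against PKP4-KO at 72 h in HCM, Tgm1, Tgm3 and Tgm5 were lower and Tgm2 higher. Of the scaffold and early envelope genes, 14 were tested, and 10 of them fell below WT in PKP4-KO at 24 h in HCM while 2 exceeded it, led by Cdsn, the gene of corneodesmosin (16.5 against 639.6 CPM). At 72 h in HCM 7 were higher and 4 lower, with Krt1, a suprabasal keratin, at 3752 against 39.7 CPM, Krt10 at 4437 against 533 CPM and Ecm1 at 20 against 202 CPM. The sum over all 5 suprabasal markers measured was 20571 to 22347 CPM in the PKP4-KO libraries and 2430 to 7501 in the WT libraries at 72 h in HCM; its part in the differences between the genotypes was not tested.

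Of the 17 genes for the processing of filaggrin, the same comparison had 10 lower and 1 higher at 24 h in HCM and 8 lower and 2 higher at 72 h, with Klk5, a kallikrein protease, at 143 against 11.4 CPM and Padi4 at 0.566 against 9.51 CPM. Of 38 transcription factors of late differentiation, 15 were lower and 11 higher at 24 h and 7 lower and 16 higher at 72 h. At 72 h the share lower was below that over all genes (29.9%), and the share higher was above that over all genes (21.9%). Hopx was at 26.3 against 228 CPM and Barx2 at 105 against 6.14 CPM at 24 h. Of 24 other late differentiation genes tested, 18 were lower and 2 higher at 24 h and 4 lower and 12 higher at 72 h, with Serpinb12 at 316 against 5.74 CPM. In WT at 72 h, HCM against LCM gave 20 of these 24 higher and 0 lower, among them Crct1 (3007 against 123 CPM). Of the 14 scaffold genes 9 were higher and 1 lower in that comparison, of the 17 filaggrin-processing genes 9 and 2, of the 38 transcription factors 7 and 9, and of the 4 cross-linking enzymes 1 and 1. Over all genes tested, 10.6% were called higher and 10.8% lower there.

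Over the 12 group means of log2 CPM, the genes outside the rule whose pattern most resembled the mean standardized pattern of the members were Crct1 (Pearson r = 0.98), X2210017I01Rik (r = 0.97), S100a7a (r = 0.97), Cysrt1 (r = 0.97) and Anxa9 (r = 0.97). The points share libraries and depth, and genes were ranked by this measure, so r is a description. Among the members themselves, r with the shared pattern ran from 0.97 for Lce3c to 0.19 for Tchh. The 5 least like it were Tchh, Sprr2a3 (0.28), Sprr2a1 (0.34), Crnn (0.36) and Sprr2a2 (0.36).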

How the data were processed

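Members, gene lists and tests were chosen with earlier results of these data known. RNA-seq reads from poly(A), strand-specific libraries of 36 keratinocyte cultures were aligned by the authors with HISAT2 2.1.0 to mm39 with the EGFP-PKP4 sequence added, handled with SAMtools 1.10 and counted per gene with featureCounts 2.0.0. The authors deposited these raw read counts, not normalized, as a table of 55358 genes. Genes passing filterByExpr over the 12 groups (15114) were fitted in edgeR 4.0.16 (R 4.3.3) with TMM factors and one mean per group (24 residual degrees of freedom). Contrasts were tested by the quasi-likelihood F test with Benjamini-Hochberg adjustment over all tested genes at 0.05. SE was the log2 fold change divided by the root of F. CPM divided counts by the library's reads in the 15114 genes that passed, times its TMM factor. Over all genes the library totals were 13602728 to 22467187 reads. Every tested member was named, partner genes by the 4 largest called changes per list. The script was tested on simulated data. Same-numbered libraries deviated together (every correlation over 0.1) in 2 of 24 comparisons, and no 2 libraries of a group agreed within sampling noise. Alternatives were no TMM, RLE factors, other count filters, a replicate block, DESeq2 1.42.0, only the groups compared, leaving out each library and, added after seeing the data, leaving out 6 libraries that stood apart.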

Additional observations from a re-analysis of the deposited data

Results flagged for a closer look

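The results below stood out because a test of the difference itself, an interaction term in the same model, gave an adjusted p under 0.05 for the effect of HCM against LCM in 2 genotypes. Values are differences of log2 fold changes, each from 3 libraries per group. At 24 h, 5 members had a lower log2 effect in PKP4-KO than in WT, and the differences were Sprr3 -3.22, Sprr2h -2.53, Sprr2d -2.45, Ivl -2.31 and Sprr1a -2.04. In that comparison 2.79% of all genes tested were called lower and 1.23% higher. At 72 h, 21 members differed between PKP4-KO and WT, where 3.88% of all genes tested were called lower and 1.85% higher. The Lce1 genes gave Lce1l -4.74, Lce1g -4.28, Lce1k -4.22, Lce1j -4.21, Lce1i -4.09, Lce1a1 -3.83, Lce1b -3.78, Lce1h -3.54, Lce1c -3.51, Lce1e -3.19, Lce1a2 -3.08, Lce1d -2.95 and Lce1f -2.73, a block of 13 with 1 sign. The Lce3 genes gave Lce3d -2.75, Lce3e -2.14 and Lce3f -1.75. The others gave Tchhl1 -5.56, Rptn -3.18, Lor -2.28, Ivl -1.92 and Sprr2b 2.60, of which Sprr2b alone was positive.

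Between Rescue and PKP4-KO, 7 members differed at 24 h, all with a larger effect in Rescue, and the differences were Sprr1a 1.94, Ivl 2.44, Lce3a 2.54, Lce3d 2.54, Lce3f 3.01, Lce3c 3.02 and Lce3e 3.02. Over all genes tested, 0.992% were called higher and 0.417% lower there. At 72 h 26 members differed, where 18.1% of all genes tested were called higher and 13.4% lower. The 13 Lce1 genes gave Lce1b 2.13, Lce1a2 2.25, Lce1c 2.43, Lce1j 2.87, Lce1a1 3.10, Lce1d 3.14, Lce1e 3.44, Lce1i 3.67, Lce1f 3.95, Lce1h 4.21, Lce1m 4.25, Lce1g 4.54 and Lce1l 4.54, and Flg, Tchh and Tchhl1 gave Flg 2.44, Tchh 2.75 and Tchhl1 5.21. The Sprr genes and Lor were negative, with Sprr2b -4.34, Sprr3 -3.08, Sprr2j.ps -2.95, Sprr2e -2.87, Sprr1b -2.40, Sprr2d -2.23, Sprr2i -2.11, Sprr1a -1.66, Sprr2h -1.62 and Lor -1.42. At 72 h in LCM the Rescue mean was above that of PKP4-KO in each of these Sprr genes except Sprr2b, where it was below. Replicate 2 was the highest Rescue LCM library for Sprr2d and Sprr2e. The part of these LCM levels in the differences was not tested. Without TMM factors Lor had a difference of -0.59 (adjusted p = 0.372), Sprr2h one of -0.76 (adjusted p = 0.107) and Sprr2i one of -1.2 (adjusted p = 0.114), and none of the 3 was called.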

How the results depend on the processing

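Requiring at least 10 counts in every library left 25 of 44 members testable, so the counts in this paragraph are out of 25. Shares over all genes were not computed under this filter. HCM against LCM gave 23 in WT at 72 h, 21 in PKP4-KO at 72 h, 14 in Rescue at 24 h and 15 in Rescue at 72 h. Under the same filter, 72 h against 24 h gave 20 in WT in HCM, 24 and 20 in PKP4-KO in HCM and LCM, and 16 and 20 in Rescue in HCM and LCM. PKP4-KO against WT gave 19 at 72 h in HCM and 10 at 72 h in LCM, Rescue against WT 10 at 24 h and 7 at 72 h in HCM, and Rescue against PKP4-KO 20 at 72 h in HCM. The differences of the calcium effect at 72 h gave 10 for PKP4-KO minus WT and 15 for Rescue minus PKP4-KO.

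The calcium count of PKP4-KO at 24 h (1 member) was 0 without TMM factors, 0 with only the groups compared, and 0 to 2 on leaving out single libraries (0 without PKP4-KO 24 h LCM replicate 2, 2 without 24 h HCM replicate 2). The count of WT in LCM over time (17) was 27 without the 6 libraries that stood apart and 10 to 17 on leaving out single libraries (10 without WT 72 h LCM replicate 1, 11 without WT 24 h LCM replicate 3). The 24 h difference of the calcium effect between PKP4-KO and WT (5) was 8 with DESeq2, 3 with only the groups compared, 10 without the 6 libraries, and 4 to 10 on leaving out single ones (10 without PKP4-KO 24 h HCM replicate 3). That between Rescue and PKP4-KO (7) was 11 with DESeq2. The cause of these changes was not tested. Of the counts recomputed, 390 stayed within 1.5 times the reported one and 28 did not. Among those that did not are the counts listed above for the filter of 10 counts, which left fewer members to call.

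Only in 1 case did a called member change direction: Sprr1b in Rescue against PKP4-KO at 72 h in HCM had a log2 fold change of 0.0740 without TMM factors. Over the alternatives other than leaving out single libraries, 5001 of 5151 recomputed calls of members held and 149 were lost. Calls of members that an alternative could not test were left out of this total. Leaving out single libraries lost up to 20 calls in a refit (142 held, without PKP4-KO 72 h LCM replicate 1). Without WT 24 h LCM replicate 3, 15 calls were lost and 50 held. With the replicate number as a block, the count for HCM against LCM in WT at 24 h stayed at 16, or 22 with only the groups compared, and the pairing moved no count by more than 1.5 times. Members with few reads, such as Lce6a, Crnn, Flg, Hrnr and Flg2, are limited by depth.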
